A study of Mus musculus with 6 samples.

Results

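Translation initiation and elongation factors are the proteins that bring ribosome, mRNA and initiator tRNA together and then carry the ribosome along the message. The 55 genes described here were chosen by symbol alone from the array annotation, which takes every gene that a probe set names alone and that is called eIF1 to eIF6, eEF1 or eEF2, with their binding proteins, kinases and methyltransferases, and the release factor genes Etf1, Gspt1 and Gspt2. Left out by the same rule were the eIF2 kinase genes (Eif2ak) and the sex-linked eIF2 subunit genes (Eif2s3). They are 55 of 18193 genes measured and have 151 of the 34945 probe sets that name 1 gene. A further 8 probe sets name a gene of these families together with another gene, such as Eif3j1 with Eif3j2, and were not used.

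The cells were haematopoietic stem cells (HSC) that had been sorted by the CD150+ CD48- KSL surface phenotype. They came from the bone marrow of Lig4mut mice (3 arrays) and from wild-type (WT, Lig4+/+) littermates (3 arrays), all 6 to 8 weeks old and bred from Lig4mut/+ parents. Lig4 encodes the DNA ligase of non-homologous end joining. The labels say neither what the mutation is nor whether an array holds 1 mouse or several, so p-values measure the spread between these arrays. In bulk RNA of sorted cells, fewer cells of a type and less RNA per cell cannot be told apart.

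Initiation begins when eIF2 delivers the initiator tRNA to the small ribosomal subunit, which eIF1, eIF1A, eIF3 and eIF5 hold in a scanning form, while eIF4E, eIF4G and the helicase eIF4A bind the cap of the mRNA. eIF2B recharges eIF2 with GTP, and phosphorylation of eIF2 blocks that step, which slows protein synthesis under stress. eEF1A then brings each aminoacyl-tRNA, eEF2 moves the ribosome by a codon, and eRF1 with eRF3 releases the finished chain. HSC are known for a low rate of protein synthesis compared with their progeny, and for being harmed when that rate goes up.

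The values are log2 expression levels of Affymetrix probe sets, quantile normalized over the 6 arrays, and a gene is given by its probe set with the highest mean. Deposited array medians lay between 5.97 and 6.05 in Lig4mut and between 6.29 and 6.34 in WT. Across probe sets, arrays correlated at r = 0.849 to 0.864 within Lig4mut and 0.940 to 0.950 within WT. Between genotypes r was 0.866 to 0.900. Every Lig4mut array thus correlated better with each WT array than with any other Lig4mut array. Lig4 itself was at 4.97, 3.16 and 3.10 in Lig4mut and at 7.53, 6.66 and 7.63 in WT (-3.53 ± 0.61 SE; limma, adjusted p = 0.13). The 7 measured HSC markers averaged 9.30 to 10.22 in the Lig4mut arrays and 10.21 to 10.49 in the WT arrays. The 9 granulocyte markers averaged 6.51, 11.00 and 7.13 in Lig4mut replicates 1, 2 and 3 and 7.93 to 9.13 in WT, so Lig4mut replicate 2 stands apart. The mean over the markers was higher in every Lig4mut array for 3 other cell types. These were 7 markers of macrophages and dendritic cells (7.71 to 7.99 in Lig4mut, 6.38 to 7.11 in WT), 6 of T and NK cells (5.30 to 6.27 in Lig4mut, 4.72 to 5.23 in WT) and 5 of megakaryocytes (9.291 to 9.925 in Lig4mut, 8.677 to 9.288 in WT). Single markers varied. Pf4, Itga2b, Gp9 and Vwf of the megakaryocyte list overlapped, as did Cd3g, Cd3d, Cd8a and Nkg7 of the T and NK list. Adgre1 of the macrophage list had a lower mean (-0.05). The means of the B cell (6.05 to 6.98 in Lig4mut, 5.99 to 6.08 in WT), erythroid (5.52 to 5.87, 5.40 to 5.86) and endothelial markers (9.29 to 10.56, 7.69 to 9.57) overlapped. None of the measured markers was at the floor of the scale on all 6 arrays. Their part in the differences reported here was not tested.

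No translation factor gene passed the threshold of 0.05 after Benjamini-Hochberg adjustment over all genes (limma, smallest adjusted p = 0.171), against 0.0110% of all genes. All 55 were tested, with no filter on low values. At an unadjusted p under 0.05 there were 9 of the 55 (16.4%), against 19.7% of all genes. Eif1a, Eif4a3 and Eef1a2 had higher values in Lig4mut, a share of 5.45% against 15.5% of all genes. Eif1ax, Eif3k, Eif4a2, Eef1aknmt, Eif5 and Eif3h had lower values, a share of 10.9% against 4.18% of all genes. Without WT replicate 1 the counts were 1 higher and 1 lower, against 10.3% and 3.08% of all genes. Without WT replicate 2 they were 1 higher and 1 lower, against 9.67% and 2.98% of all genes. Without WT replicate 3 they were 2 higher and 0 lower, against 11.4% and 3.12% of all genes. The plot of all differences shows that the 9 genes named above sit among many whose standard errors span 0.

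**Figure D1:**
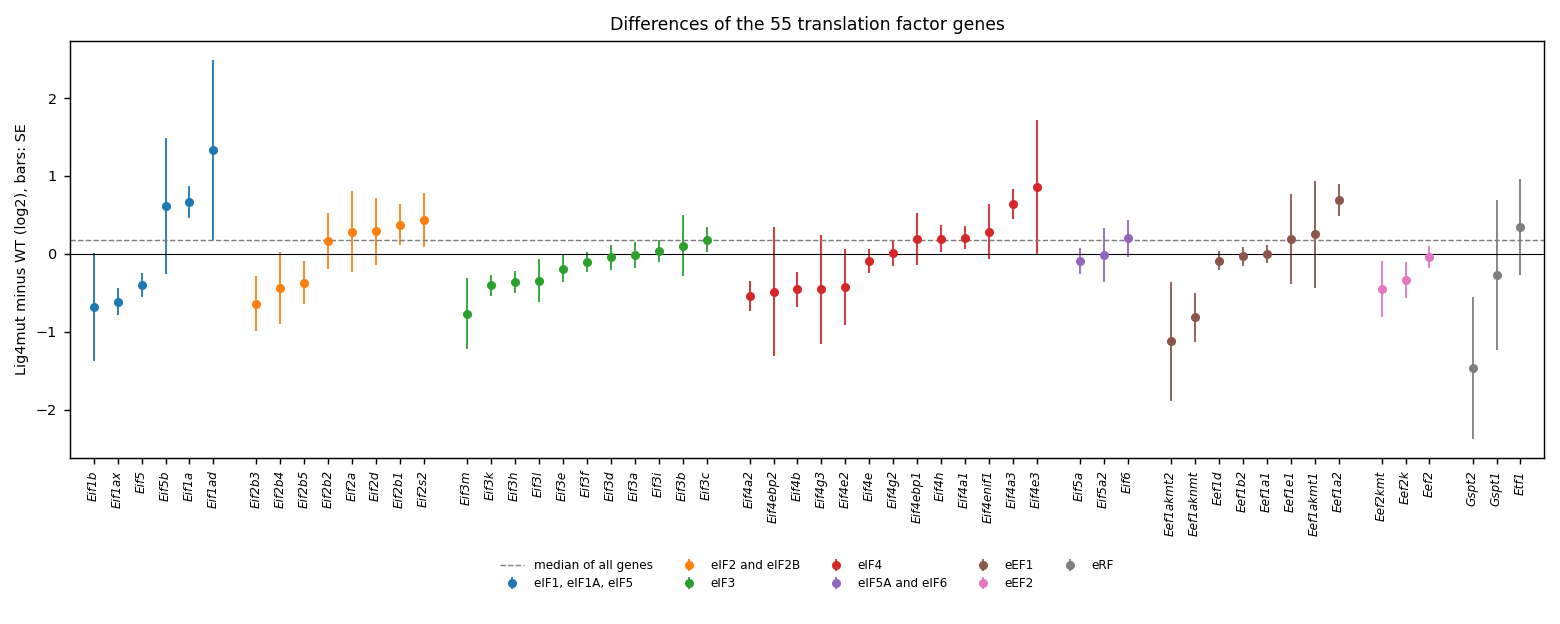
Difference of Lig4mut minus WT on the log2 scale (points, y axis) with its standard error from limma (bars) for each of the 55 genes, grouped and coloured by role along the x axis. The dashed line is the median of all 18193 genes, 0.18. Differences run from -1.46 (Gspt2) to 1.34 (Eif1ad), and 31 of the 55 lie below 0 here, 30 as deposited, 26 with cyclic loess and 19 with median centring.

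The 3 Lig4mut arrays lay apart from the 3 WT arrays for 11 of the 55 genes. In 3 of them (5.45%) Lig4mut was higher, where 21.0% of all genes were, and in 8 (14.5%) it was lower, where 5.65% of all genes were. The 8 were the 6 lower genes named above with Eif3f and Eif4b. With each array centred on its median instead, 17 of the 55 were higher and 1 lower with arrays apart, against 30.1% and 3.14% of all genes. Whether arrays overlap is given for quantile normalization unless another scaling is named. By mean, 24 of the 55 were higher (43.6%) and 31 lower (56.4%), against 61.4% and 37.1% of all genes, and the majority turned to 36 higher and 19 lower with median centring and to 29 higher and 26 lower with cyclic loess.

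Differences over all genes varied with signal level. The genes were split into 5 equal classes by mean level over all 6 arrays, and 40 of the 55 translation factors fell in the brightest class. Over all genes of that class the median difference was -0.13, and 3.11% were higher and 6.46% lower at an unadjusted p under 0.05. The 40 translation factors in it had a median difference of -0.04, with 1 higher and 5 lower (12.5%) at that p. Arrays lay apart and lower for 7 of the 40 (17.5%), against 10.1% of all genes of the class. In the brightest class the median of the translation factors lay above that of all genes by 0.09, and by 0.04 to 0.06 under the other scalings described next. The 9 in the next class lay above its median by 0.18, while the 4 in the middle class differed from its median by -1.13, with 3 of them lower, and the 2 below that by -0.10. None was in the dimmest class. The plot of difference against level shows this course of the medians.

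**Figure D2:**
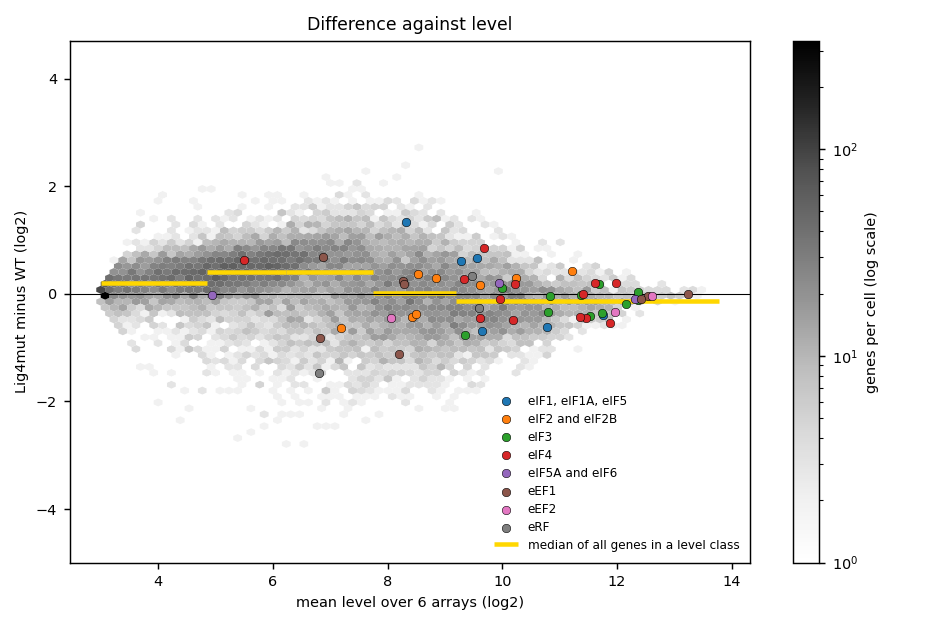
Difference of Lig4mut minus WT (y axis, log2) against mean level over 6 arrays (x axis, log2), for all genes as grey cells shaded by gene number and for the 55 translation factors as points coloured by role. Gold bars are the medians of all genes in the 5 level classes, which go from 0.20 in the dimmest through 0.41, 0.40 and 0.01 to -0.13 in the brightest.

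The sign of the group also depended on the scaling. The median difference of the 55 genes was -0.04 with quantile normalization and -0.05 in the values as deposited, but 0.26 with each array centred on its median and 0.01 with cyclic loess. The medians of all genes were 0.18, 0.02, 0.33 and 0.09 under the same scalings, so the translation factors lay below all genes in each, by 0.21, 0.07, 0.07 and 0.08. At an unadjusted p under 0.05, the 3 higher and 6 lower genes became 1 higher and 4 lower as deposited, where 6.71% of all genes were higher and 5.44% lower. With median centring they became 6 higher and 0 lower, against 18.4% and 2.60% of all genes. With cyclic loess they became 1 higher and 2 lower, against 8.67% and 4.39% of all genes.

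**Figure D3:**
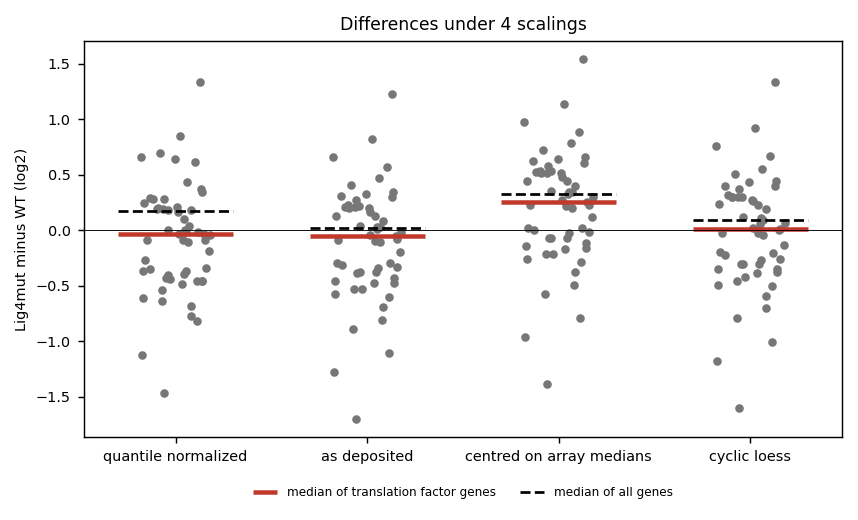
Differences of Lig4mut minus WT (y axis, log2) of the 55 translation factor genes (grey points, spread sideways for sight only) under 4 ways of scaling the arrays. Red bars are the medians of the 55 genes, -0.04, -0.05, 0.26 and 0.01 from left to right, and dashed black bars those of all genes.

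The group of eIF1, eIF1A and eIF5 genes was formed by symbol and also takes in Eif1ad and Eif5b. In it, 3 of 6 genes had higher and 3 lower values in Lig4mut under each of the 4 scalings. The 3 higher were Eif1a, Eif1ad and Eif5b, and the 3 lower Eif1ax, Eif1b and Eif5. Eif1ax and Eif1a encode near-identical copies of eIF1A, the factor that holds the scanning ribosome open. Eif1ax, on the X chromosome, was at 10.64, 10.59 and 10.18 in Lig4mut replicates 1, 2 and 3 and at 11.00, 11.09 and 11.16 in those of WT. Every Lig4mut array was below every WT array, a difference of -0.61 ± 0.17 (SE, n = 3 per genotype; limma, adjusted p = 0.171). With arrays centred on their medians it was -0.26 and the arrays overlapped. All 3 probe sets of Eif1ax had lower means, with differences of -0.61, -1.08 and -2.54, although the last 2 overlapped between genotypes.

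Arrays differed in sex-linked transcripts. Xist, the RNA of the silenced X chromosome, was at 12.33 in Lig4mut replicate 2 and 12.52 in WT replicate 3, and between 4.84 and 5.82 on the other arrays. Each genotype thus had 1 array high in Xist. The part of this in the values of Eif1ax, and of Gspt2 on the same chromosome, was not tested.

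Eif1a, on chromosome 18, went the other way, with 9.68, 9.97 and 10.03 in Lig4mut and 8.94, 9.23 and 9.52 in WT. The arrays did not overlap and the difference was 0.66 ± 0.21 (SE; limma, adjusted p = 0.188). Its second probe set differed by -0.02 and overlapped, so the value rests on 1 of 2 probe sets, and a probe set shared with Gm4027 and BB287469 was not counted. Whether the differences of Eif1a and Eif1ax differ from each other was not tested.

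Eif5, the factor that makes eIF2 hydrolyse its GTP at the start codon, was at 11.73, 11.63 and 11.34 in Lig4mut and at 11.90, 11.97 and 12.01 in WT. The Lig4mut arrays were all lower, with a difference of -0.40 ± 0.15 (SE; limma, adjusted p = 0.244). All 5 probe sets of Eif5 had lower means, with differences of -0.24 to -1.27, and for 4 of them the arrays did not overlap, the exception being the one with -0.24. With median centring the difference of Eif5 was -0.06 and the arrays overlapped.

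Further genes of this group, named after their values were seen, varied widely within Lig4mut. Eif1ad was at 6.72, 9.71 and 10.52 in Lig4mut and at 8.40, 8.15 and 6.40 in WT, and its second probe set differed the other way (-0.60). Eif5b, which joins the ribosomal subunits, was at 9.89, 7.76 and 11.10 in Lig4mut and at 8.84, 9.33 and 8.74 in WT. Its probe sets gave differences of 0.62, -0.25 and -2.06, so Eif5b had no single direction. Eif1b, a copy of eIF1, differed by -0.68 ± 0.70 (SE).

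Genes of eIF2, its exchange factor eIF2B, eIF2A and eIF2D were taken as 1 group of 8. They showed no unadjusted call, with 5 of 8 higher under each of the 4 scalings and a median difference of 0.23. Eif2a and Eif2d, which encode no subunit of eIF2 or eIF2B, were among the 5. Eif2s2, the beta subunit of eIF2, was at 11.42, 11.71 and 11.18 in Lig4mut and at 10.36, 11.13 and 11.52 in WT, and the genotypes overlapped (0.43 ± 0.34 SE; limma, adjusted p = 0.534). Without WT replicate 1 the difference was 0.11, and without WT replicate 3 it was 0.69. All 6 probe sets of Eif2s2 had higher means in Lig4mut, by 0.05 to 0.94, with arrays apart for 2 of them. Of the 5 subunits of eIF2B, 2 had higher and 3 lower values. Eif2b3 was at 6.48, 6.54 and 7.61 in Lig4mut and at 7.37, 7.76 and 7.41 in WT. Replicate 3 of Lig4mut lay within the WT range and the other Lig4mut arrays below it (-0.64 ± 0.35 SE; limma, adjusted p = 0.386). Eif2b1 differed by 0.37 ± 0.26 and Eif2b5 by -0.37 ± 0.28, both with overlapping arrays. The remaining genes, Eif2a, Eif2b2, Eif2b4 and Eif2d, ran from -0.44 to 0.29 and overlapped.

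The eIF3 genes, whose products form the large scaffold on the small subunit, were bright and had small differences. Of 11 genes 8 were lower and 3 higher, from -0.77 (Eif3m) to 0.18 (Eif3c), but with median centring 3 were lower and 8 higher. Their mean level was 11.21, 11.11 and 11.30 in the Lig4mut arrays and 11.46, 11.35 and 11.32 in the WT arrays, a difference of -0.17. It was -0.16 in the values as deposited, -0.08 with cyclic loess, where the arrays overlapped, and 0.16 with median centring, so that its sign turned.

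Eif3k had the smallest p of the eIF3 genes, with 11.18, 11.39 and 11.44 in Lig4mut and 11.75, 11.64 and 11.82 in WT. All Lig4mut arrays were lower, with a difference of -0.40 ± 0.14 (SE; limma, adjusted p = 0.209), which was -0.06 with median centring, where they overlapped. Eif3h was at 11.74, 11.55 and 11.41 in Lig4mut and at 11.93, 11.87 and 11.98 in WT (-0.36 ± 0.14 SE; limma, adjusted p = 0.248, and -0.02 with median centring). Both other probe sets of Eif3h were dim and had lower means (-0.998 and -0.847), with overlapping arrays. Eif3f was at 12.37, 12.20 and 12.39 in Lig4mut and 12.47, 12.39 and 12.41 in WT. Its groups were apart by little (-0.10 ± 0.12 SE), and with median centring Eif3f was higher instead, by 0.20. Eif3m was at 9.31, 8.03 and 9.56 in Lig4mut and 9.72, 10.06 and 9.43 in WT, with Lig4mut replicate 2 far below the rest, and its difference was -0.30 without that array. The other 7 eIF3 genes ran from -0.34 (Eif3l) to 0.18, and the probe sets that stand for them overlapped. Some of their further probe sets did separate the genotypes. A further probe set was lower in every Lig4mut array for Eif3a (-0.78) and for Eif3c (-0.30). A dim further probe set of Eif3e was higher in every Lig4mut array (0.46).

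**Figure D4:**
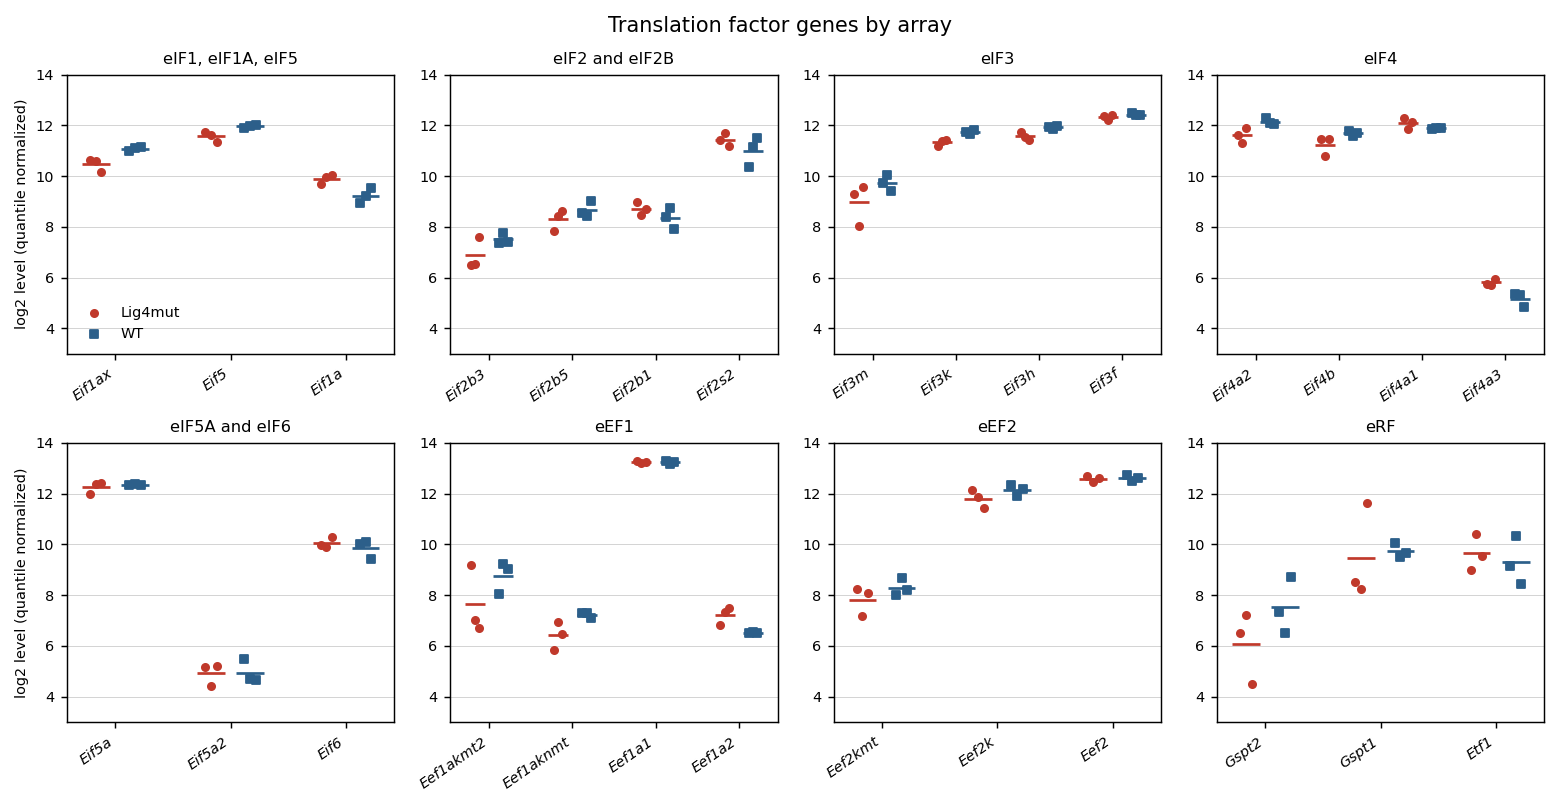
Log2 levels (y axis, quantile normalized) of the 28 genes named by the rule, in 8 panels by role. Red circles are the 3 Lig4mut arrays, blue squares the 3 WT arrays and bars the means. Eef1a1 and Eef2 lie within a narrow band in both genotypes, and the Lig4mut circles of Gspt1, Gspt2 and Eef1akmt2 are spread over more than 2 log2 units.

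The cap-binding and helicase genes split. Of 13 genes of the eIF4 group, 7 were higher and 6 lower, with a median difference of 0.01, and with median centring 8 were higher and 5 lower. The helicase eIF4A has 3 paralogues here. Eif4a2 was at 11.61, 11.32 and 11.89 in Lig4mut and at 12.30, 12.09 and 12.04 in WT. Its Lig4mut arrays were all lower (-0.54 ± 0.19 SE; limma, adjusted p = 0.225), but overlapped with median centring (-0.22). Eif4a1, the main helicase of initiation, was at 12.29, 11.87 and 12.13 in Lig4mut and at 11.87, 11.90 and 11.89 in WT. Replicate 2 of Lig4mut was level with WT and the other Lig4mut arrays above it (0.21 ± 0.15 SE; limma, adjusted p = 0.5).

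Eif4a3, the helicase of the exon junction complex rather than of initiation, was at 5.76, 5.73 and 5.94 in Lig4mut and at 5.36, 5.30 and 4.85 in WT. All Lig4mut arrays were higher (0.64 ± 0.19 SE; limma, adjusted p = 0.177, and 0.33 before quantile normalization). The probe set is dim, in a level class in which 29.0% of all genes were higher at an unadjusted p under 0.05, and another probe set, shared with Gm5576, was not counted. Eif4b, the partner that stimulates eIF4A, was at 11.44, 10.81 and 11.46 in Lig4mut and at 11.79, 11.59 and 11.71 in WT. Its arrays did not overlap, with a difference of -0.46 ± 0.22 (SE; limma, adjusted p = 0.335), and its 3 probe sets differed by -0.45 to -0.56. With median centring the difference of Eif4b was -0.11 and the arrays overlapped, and without Lig4mut replicate 2 it was -0.24.

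The cap-binding proteins themselves were named after their values were seen. Eif4e was at 9.85, 9.95 and 9.97 in Lig4mut and at 10.01, 10.23 and 9.80 in WT, a difference of -0.09 ± 0.16 (SE). Its 4 probe sets ran from -0.09 to 0.58. The repressors that bind eIF4E, Eif4ebp1 and Eif4ebp2, differed by 0.19 ± 0.33 and -0.48 ± 0.83, and Eif4ebp2 was at 10.82 and 10.94 in Lig4mut replicates 1 and 2 and at 8.07 in replicate 3, against 10.38 to 10.49 in WT. Eif4g2, a scaffold that lacks the site for eIF4E, had a difference of 0.01 ± 0.16. Eif4e2, Eif4e3, Eif4enif1, Eif4g3 and Eif4h ran from -0.45 to 0.85. The arrays of all these genes overlapped, except that those of Eif4g2 (0.36) and Eif4h (0.54) were apart and higher with median centring. Single probe sets did separate the genotypes. Of the 6 of Eif4h, a stimulator of eIF4A, 3 were higher in every Lig4mut array, by 0.42, 0.47 and 0.92, the last with the smallest p of all 151 probe sets (limma, adjusted p = 0.139 over all probe sets). Those of Eif4e2, a cap-binding relative of eIF4E, went both ways, with 1 apart and lower (-1.33) and 1 apart and higher (0.51). Eif4ebp2, Eif4g2 and Eif4g3 had 1 probe set each that was apart and lower, with -0.75, -0.98 and -0.29.

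The factors that assist beside the main path had overlapping arrays under quantile normalization. Eif5a, which carries hypusine and helps the ribosome through difficult stretches such as prolines, was at 11.99, 12.40 and 12.40 in Lig4mut and at 12.34, 12.40 and 12.33 in WT (-0.09 ± 0.16 SE). Its paralogue Eif5a2 was dim, at 5.17, 4.41 and 5.20 in Lig4mut and 5.48, 4.69 and 4.66 in WT. Eif6, which keeps the large subunit from joining too early, was at 9.97, 9.88 and 10.28 in Lig4mut and 10.03, 10.08 and 9.43 in WT. With median centring all 3 had higher means in Lig4mut, and the arrays of 1 of them, Eif6, lay apart.

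By their probe sets with the highest mean, the core elongation factors had overlapping arrays and differences near 0 under quantile normalization. Eef1a1, which delivers aminoacyl-tRNA, was at 13.28, 13.21 and 13.24 in Lig4mut and at 13.30, 13.18 and 13.23 in WT, a difference of 0.00 ± 0.11 (SE; limma, adjusted p = 1). Eef2, the translocase, was at 12.69, 12.44 and 12.63 in Lig4mut and at 12.74, 12.50 and 12.62 in WT (-0.04 ± 0.14 SE; limma, adjusted p = 0.922). The exchange factor genes Eef1b2 and Eef1d, named after their values were seen, differed by -0.03 ± 0.12 and -0.09 ± 0.12. Dimmer probe sets of Eef1d had arrays apart in both directions (-1.10 and 0.91). With median centring all 4 genes were higher in every Lig4mut array, by 0.22 to 0.32, close to the 0.33 of the median of all genes in that scaling.

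Eef1a2, the copy of eEF1A known from muscle and nerve, was at 6.82, 7.36 and 7.48 in Lig4mut and at 6.51, 6.54 and 6.53 in WT. All Lig4mut arrays were higher, by a mean of 0.69 ± 0.21 (SE; limma, adjusted p = 0.182), and by 0.41 before quantile normalization. It has 1 probe set, in a level class in which 23.5% of all genes were higher at an unadjusted p under 0.05. Eef1aknmt, a methyltransferase of eEF1A, was at 5.83, 6.95 and 6.45 in Lig4mut and at 7.30, 7.29 and 7.09 in WT. It was lower in every Lig4mut array under all 4 scalings (-0.82 ± 0.31 SE; limma, adjusted p = 0.242), but its other 2 probe sets differed by -0.02 and 0.05, and without Lig4mut replicate 1 the difference was -0.52. Eef1akmt2, another such enzyme, was at 9.19 in Lig4mut replicate 1 and at 7.03 and 6.71 in replicates 2 and 3, against 8.05, 9.22 and 9.04 in WT. Eef1akmt1 and Eef1e1 differed by 0.25 and 0.19 and overlapped.

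All 3 genes around eEF2 had lower means, except that Eef2 was higher with median centring and cyclic loess. By its probe set with the highest mean, none had separate arrays under quantile normalization. Eef2k, the kinase that halts eEF2, was at 12.12, 11.86 and 11.42 in Lig4mut and at 12.33, 11.92 and 12.16 in WT (-0.33 ± 0.23 SE; limma, adjusted p = 0.483), with -0.14 when Lig4mut replicate 3 was left out. Its 3 probe sets all had lower means, with differences of -0.04 to -1.25, and at the probe set with -1.25 every Lig4mut array was lower. The other probe set of Eef2, a dim probe set, was higher in every Lig4mut array (0.35). Eef2kmt, a methyltransferase of eEF2, was at 8.24, 7.16 and 8.08 in Lig4mut and at 8.00, 8.66 and 8.19 in WT.

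The release factor genes had the lowest group mean relative to WT. It was 8.00, 8.63 and 8.56 in the Lig4mut arrays and 8.85, 8.79 and 8.94 in the WT arrays, a difference of -0.46, with -0.55 as deposited, -0.45 with cyclic loess and -0.23 with median centring, where the arrays overlapped. The mean rests on 3 genes that varied strongly. Gspt2, a retrogene copy of eRF3, was at 6.50, 7.21 and 4.51 in Lig4mut and at 7.36, 6.52 and 8.73 in WT (-1.46 ± 0.91 SE; limma, adjusted p = 0.435). Without Lig4mut replicate 3 the difference of Gspt2 was -0.68, and without WT replicate 3 it was -0.86. Its second probe set differed by 0.10. Gspt1, the main eRF3, was at 8.52, 8.25 and 11.63 in Lig4mut and at 10.04, 9.51 and 9.65 in WT. Without Lig4mut replicate 3 its difference was -1.35, against -0.27 with all arrays, and without Lig4mut replicate 1 or 2 it was 0.21 or 0.34, so single arrays set its sign. All 6 of its probe sets had lower means and overlapping arrays. Etf1, eRF1, was at 8.99, 10.41 and 9.55 in Lig4mut and at 9.17, 10.33 and 8.43 in WT, and overlapped.

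Over the 27 genes with at least 3 probe sets, 8 had lower means in Lig4mut at every probe set (29.6%, against 15.8% of all such genes). They were Eif1ax, Eif5, Eif3a, Eif3h, Eif4b, Eif4g3, Eef2k and Gspt1, of which Eif1ax, Eif3h, Eif4b and Eif4g3 were lower throughout with median centring too. Eif2s2 and Eif4ebp1 had higher means at every probe set (7.41%, against 17.1% of all such genes), Eif2s2 under each of the 4 scalings and Eif4ebp1 with quantile normalization and median centring. With median centring the balance turned, to 6 genes higher at every probe set and 4 lower, against 28.8% and 8.51% of all such genes. The 6 were Eif2s2 and Eif4ebp1 with Eif3c, Eif3e, Eif4a1 and Eif4e. As deposited, 1 gene was higher and 8 lower at every probe set, against 9.87% and 22.2% of all such genes. With cyclic loess 2 were higher and 8 lower, against 13.1% and 18.4%. In both, Eef1aknmt stood in place of Eif3a among the 8. None of these shares was matched for signal level. Probe sets of 1 gene share their RNA and often their target and are not replicates. In 25 of the 39 genes with several probe sets the directions were mixed, as for Eif5b and Eef1d in the plot of probe sets. By mean, 63 of the 151 probe sets were higher and 88 lower, against 55.3% and 42.4% of all probe sets. Arrays lay apart for 12 higher and 21 lower ones, against 16.6% and 7.13% of all. Taken singly, 10 of 151 probe sets were higher and 13 lower at an unadjusted p under 0.05, against 12.2% and 5.30% of all probe sets (17.5% in either direction). None passed the adjusted threshold (limma, smallest adjusted p = 0.139), against 0.00286% of all probe sets.

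**Figure D5:**
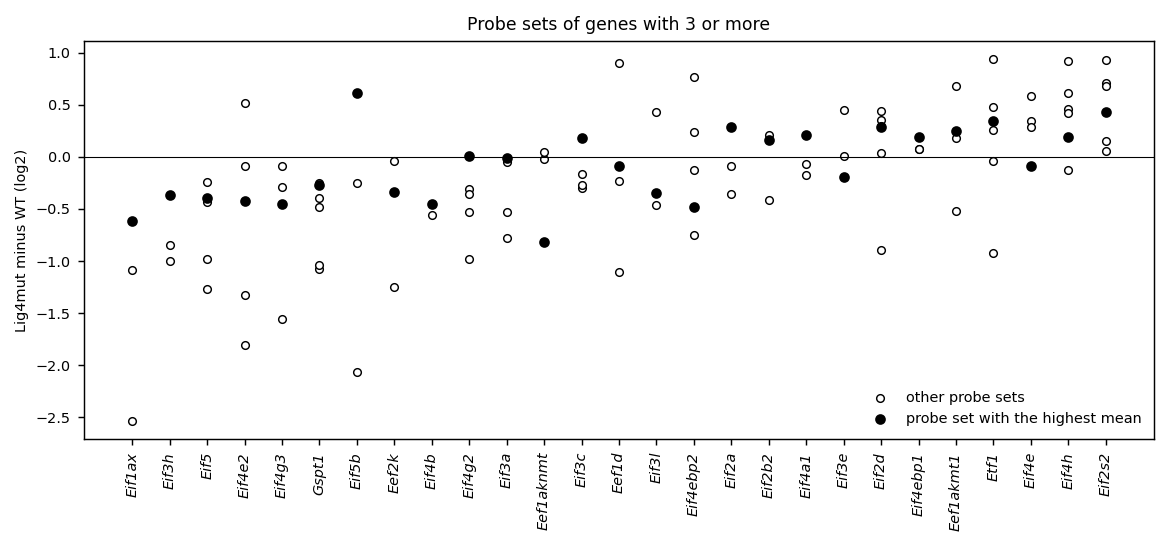
Difference of Lig4mut minus WT (y axis, log2) of each probe set of the 27 genes with 3 or more, ordered by their mean (x axis). Filled points are the probe sets with the highest mean level, which stand for the gene elsewhere, and open points the others. Those of Eif5 all lie below 0 and those of Eif2s2 all above it, and those of Eif5b run from -2.06 to 0.62.

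Spread between arrays was larger in Lig4mut. The SD of 42 of the 55 genes (76.4%) was larger among Lig4mut than among WT arrays, against 69.9% of all genes, and its median over the 55 was 0.35 in Lig4mut and 0.22 in WT. Lig4mut replicate 2 held the lowest Lig4mut value for 24 of the 55 genes, replicate 1 for 15 and replicate 3 for 16. Without replicate 2, the array high in granulocyte markers, 2 genes were higher and 4 lower at an unadjusted p under 0.05. Of all genes, 14.3% were higher and 4.94% lower in that fit.

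Start regions were compared because many growth-related genes share promoter letters. RefSeq windows from 250 bases before to 50 after the annotated start (GRCm38.p6) were found for 42 of the 55 genes, 56 windows in all. The E-box CACGTG, the letters bound by Myc and by USF factors, was searched on both strands, which read alike, and so was CCGGAAG, a core bound by ETS factors, with its reverse complement CTTCCGG. The 2 motifs do not overlap in their letters. CACGTG stood in 14 of 56 windows (25.0%), against 8.74% of 18006 windows of genes on the array and 7.15% of all 32851. CCGGAAG stood in 19 of 56 (33.9%), against 13.0% and 8.86%. The windows of these genes also hold more G and C, a median of 63.0% against 58.3% for genes on the array, and the part of base composition was not tested.

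Of the 12 genes with CACGTG 10 had lower means in Lig4mut, with a median difference of -0.09, and of the 30 without it 16, with a median of -0.04. Of 16 genes with CCGGAAG 12 were lower (median -0.18), and of 26 without it 14 (median -0.02). With median centring the direction of these counts changed, to 4 of 12 lower with CACGTG and 6 of 16 lower with CCGGAAG. These are descriptions of overlapping groups, and they carry no test. The start regions printed are those of Eif1ax, Eif3k and Eef1aknmt, which were lower at an unadjusted p under 0.05 and hold a motif, and those of Eef1a2 and Eif4a3, which were higher and hold neither. The windows of Eif4a2 and Eif5, which were lower, hold neither as well and are not printed. For Eif1a, which was higher, and Eif3h, which was lower, no window was found. The printed regions were thus picked by direction and motif together. Each printed region runs 5′ to 3′ from 250 bases before the start to 20 after, with the motif in capitals. They lie at chrX:159371928-159372197 on the plus strand for Eif1ax, chr7:28981869-28982138 on the minus strand for Eif3k, chr1:162548326-162548595 on the minus strand for Eef1aknmt, chr2:181156996-181157265 on the minus strand for Eef1a2 and chr11:119300024-119300293 on the minus strand for Eif4a3.
Eif1ax: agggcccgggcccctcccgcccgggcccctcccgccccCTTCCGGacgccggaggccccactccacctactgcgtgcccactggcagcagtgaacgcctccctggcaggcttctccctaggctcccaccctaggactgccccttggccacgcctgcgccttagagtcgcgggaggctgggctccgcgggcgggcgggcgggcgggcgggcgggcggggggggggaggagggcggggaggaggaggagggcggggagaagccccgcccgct
Eif3k: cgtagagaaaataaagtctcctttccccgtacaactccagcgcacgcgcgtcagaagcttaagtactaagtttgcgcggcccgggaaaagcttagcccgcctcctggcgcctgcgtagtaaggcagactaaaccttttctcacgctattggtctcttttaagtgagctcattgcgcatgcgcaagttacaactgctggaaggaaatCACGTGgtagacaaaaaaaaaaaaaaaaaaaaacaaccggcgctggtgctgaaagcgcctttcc
Eef1aknmt: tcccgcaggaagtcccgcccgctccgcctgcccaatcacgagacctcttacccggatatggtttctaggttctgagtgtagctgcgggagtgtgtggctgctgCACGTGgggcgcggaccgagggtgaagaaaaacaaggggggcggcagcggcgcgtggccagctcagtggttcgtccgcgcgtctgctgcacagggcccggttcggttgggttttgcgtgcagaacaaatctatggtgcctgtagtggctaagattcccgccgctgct
Eef1a2: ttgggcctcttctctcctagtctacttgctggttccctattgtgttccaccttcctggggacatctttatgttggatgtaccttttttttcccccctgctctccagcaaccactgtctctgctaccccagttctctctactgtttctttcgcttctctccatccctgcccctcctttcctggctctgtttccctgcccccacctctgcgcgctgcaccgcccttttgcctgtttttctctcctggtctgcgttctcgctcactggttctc
Eif4a3: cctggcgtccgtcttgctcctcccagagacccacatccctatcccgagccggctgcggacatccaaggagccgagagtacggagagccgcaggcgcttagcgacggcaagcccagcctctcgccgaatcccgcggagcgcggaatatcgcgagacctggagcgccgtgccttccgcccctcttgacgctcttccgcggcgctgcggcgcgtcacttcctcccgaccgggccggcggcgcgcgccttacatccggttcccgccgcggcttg
The motif begins 212 bases before the start in Eif1ax, 44 in Eif3k and 147 in Eef1aknmt.

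Other genes that act on these steps were taken from lists of named genes. Among 35 regulators of initiation and elongation, 27 were lower and 8 higher, but 16 lower and 19 higher with median centring. Their median difference was -0.26, against 0.18 for all genes, and 0.02 against 0.33 with median centring. This comparison was not matched for signal level. Most of the 35 were in the brightest class, where the median of all genes was -0.13 with quantile normalization. Of these 35, 2 were higher and 2 lower at an unadjusted p under 0.05, against 15.5% and 4.18% of all genes. No member passed the adjusted threshold (limma, smallest adjusted p = 0.138). Hbs1l, which rescues stalled ribosomes, was at 8.47, 9.02 and 7.99 in Lig4mut and at 10.06, 9.90 and 9.76 in WT (-1.41 ± 0.29 SE). The helicase gene Ddx3x was at 11.56, 11.72 and 11.50 in Lig4mut and at 12.07, 12.14 and 12.25 in WT (-0.56 ± 0.13 SE). Mknk1, a kinase of eIF4E, was at 8.75, 8.19 and 7.81 in Lig4mut and at 7.21, 7.00 and 7.54 in WT (1.00 ± 0.30 SE). Dohh, an enzyme of the hypusine modification of eIF5A that was named after its values were seen, differed by 0.53 ± 0.17. For these 4 genes the arrays did not overlap, except that those of Ddx3x did with median centring (-0.24). Pelo, the partner of Hbs1l in that rescue, was also named after its values were seen and went the other way, at 6.92, 7.77 and 7.54 in Lig4mut and at 6.50, 6.88 and 5.41 in WT. It was higher in every Lig4mut array (1.15 ± 0.46 SE; limma, adjusted p = 0.256), though overlapping in the values as deposited and with cyclic loess.

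The aminoacyl-tRNA synthetase genes, which charge the tRNAs, had 9 of 21 measured members higher (18 with median centring, 11 with cyclic loess) and a median of -0.08. None was at an unadjusted p under 0.05, against 19.7% of all genes in either direction. Farsa was at 9.64, 9.73 and 9.63 in Lig4mut and 9.32, 9.24 and 9.53 in WT (0.31 ± 0.14 SE), Vars differed by 0.70 ± 0.34 and Cars by 0.41 ± 0.27. Among 9 mitochondrial translation factors 5 were higher, with a median of 0.05 (4 and -0.03 in the values as deposited). Tsfm, the mitochondrial exchange factor, differed by 1.67 ± 0.64 and had overlapping arrays. It was the 1 of 9 members higher at an unadjusted p under 0.05, where 15.5% of all genes were, and none was lower. Mtif2 and Mtfmt differed by -0.42 ± 0.23 and -0.68 ± 0.27.

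Phosphorylation of eIF2 raises ATF4, and of 24 genes of ATF4 and its targets 16 were higher (14 as deposited, 20 with median centring, 17 with cyclic loess), with a median of 0.24 against 0.18 for all genes. At an unadjusted p under 0.05 were 3 higher and 1 lower, against 15.5% and 4.18% of all genes. No member passed the adjusted threshold (limma, smallest adjusted p = 0.169). Ddit3, the stress factor CHOP, was at 8.11, 8.87 and 8.39 in Lig4mut and at 9.31, 9.09 and 9.64 in WT, lower in every array (-0.89 ± 0.26 SE), though overlapping with median centring. Mthfd2, of mitochondrial folate metabolism, was at 7.54, 9.16 and 8.74 in Lig4mut and at 7.32, 7.46 and 7.08 in WT, higher in every array (1.19 ± 0.45 SE), though overlapping in the values as deposited and with cyclic loess. Nupr1, a stress-induced chromatin protein, was at 11.44, 10.72 and 10.36 in Lig4mut and at 8.65, 9.61 and 7.35 in WT (2.31 ± 0.64 SE). Slc7a5, an amino acid transporter named after its values were seen, differed by 0.85 ± 0.33. The named members of this list thus did not share a direction.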

How the data were processed

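The table holds log2 expression values of 45101 probe sets on 6 arrays, computed by RMA per the submitters' processing notes, with no version named, and deposited by the authors with a lowest value of 3 on each array. The labels describe Trizol extraction and biotin labelling. Because array distributions differed, quantile normalization over the 6 arrays was applied first. Control probe sets and those naming several genes or none were left out, which kept 34945, and the brightest probe set on average stood for each of 18193 genes. Lig4mut and WT were compared with limma 3.58.1 in R 4.3.3 (lmFit, eBayes, two-sided), adjusted by Benjamini-Hochberg across genes, and once more across probe sets. The limma fit was tested on simulated data with known changes. An exact permutation test of 3 arrays against 3 cannot go below p = 0.1 and was not run. Precision is limited by the number of arrays. Differences of means under 1e-04 count as 0.

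In each of 8 role groups, the 3 genes with the smallest p and the brightest gene were named, and in each of 4 lists the 3 with the smallest p. Other genes are said to be named after their values were seen. Members and lists were chosen with earlier results of these data known.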

Additional observations from a re-analysis of the deposited data

How the results depend on the processing

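Same-numbered arrays of the genotypes did not deviate together over all genes (r = 0.04, 0.01 and -0.03 for replicates 1, 2 and 3). These correlations cannot show whether the numbers pair arrays, because each rests on values centred within 3 arrays per genotype. With the replicate number as a block, the counts at an unadjusted p under 0.05 were 2 higher and 0 lower, against 3 and 6 without it. Of all genes, 11.7% were higher and 4.05% lower in the block fit. No translation factor passed the adjusted threshold under any of the 14 alternative fits or at an adjusted p of 0.1 (limma, 0 of 55 in each). The higher count of 3 was 1 in the values as deposited, with cyclic loess and with a variance trend and robust moderation, 6 with median centring, and 0 with dim genes left out or at an unadjusted p under 0.01. The lower count of 6 was 0 with median centring, with dim genes left out and at an unadjusted p under 0.01, and 2 with cyclic loess. With dim genes left out, 8.91% of all genes kept were higher and 4.36% lower. With a variance trend and robust moderation, 13.9% of all genes were higher and 3.93% lower. Leaving out 1 array gave 1 to 4 higher and 0 to 6 lower, against 9.67% to 16.4% and 2.98% to 6.07% of all genes. The median relative to all genes, -0.21, ran from -0.29 to -0.18 with 1 array left out and was -0.07 as deposited, with median centring and with dim genes left out and -0.08 with cyclic loess.

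Some of the 28 named genes turned sign, none of them called. With median centring Eif3f was at 0.20, Eif5a at 0.23, Eif5a2 at 0.024, Eef2 at 0.27 and Gspt1 at 0.020. As the mean of probe sets Eif4a1 was at -0.011, Eif5a at 0.052 and Eef2 at 0.16. Eef2 was at 0.018 with cyclic loess, and Eif5a2 at 0.039 with array weights. With 1 array left out, Eif6 ran from -0.0082 to 0.31, Eif5a from -0.16 to 0.045, Eif5a2 from -0.15 to 0.25, Eef1a1 from -0.025 to 0.035, Eef2 from -0.097 to 0.038, Etf1 from -0.10 to 0.85 and Gspt1 from -1.35 to 0.34. Of the genes that kept their sign, leaving out 1 array moved Eif2b1 to between 0.17 and 0.57, Eif2b3 to -1.003 without Lig4mut replicate 3, Eif2b5 to -0.14 without Lig4mut replicate 1 and -0.19 without WT replicate 3, Eif3f to -0.046 without Lig4mut replicate 2, Eif4a1 to 0.11 without Lig4mut replicate 1 and 0.32 without Lig4mut replicate 2, Eef2kmt to -0.12 without Lig4mut replicate 2 and -0.27 without WT replicate 2, and Eef1akmt2 to -0.65 without Lig4mut replicate 3 and -1.90 without Lig4mut replicate 1. The causes were not tested. Dim genes left out removed 2 of the 55, Eif4a3 and Eif5a2. With 3 arrays per genotype, a p that misses the threshold does not show equal levels.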
